A study of Arabidopsis thaliana with 12 samples.

Results

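The comparison described here is that of older with younger rosettes of normal Arabidopsis thaliana, 3 arrays of ecotype Col-0 at growth stage 1.14 against 3 at stage 1.05, 6 of the 12 arrays of the series. The arrays were chosen by their labels alone, as the Col-0 samples of each stage. Both stages belong to the leaf-production part of the growth scale, where the digits after the point count rosette leaves. All plants carried the Col-0 background and no treatment that differed between groups, and they grew in compost in a greenhouse at 20 °C and 80% humidity with 16 h of light. Stratification, a cold rest of the seed before growth, lasted the same number of days in all groups. The design text gives 40 pooled plants, so an array describes a pool of rosette leaves and not 1 plant. The other 6 arrays held SPH1 RNAi plants, which carry an RNAi construct against SPH1 in the same ecotype, with 3 arrays at each stage. The labels name neither the promoter of that construct nor the number of lines, and 1 of its arrays at stage 1.14 lacks the construct in its labels and was grouped by its source name. Labelled RNA was hybridised to the ATH1 array, on which a probe set is a group of short probes read as 1 signal. The title of the series asks what SPH1, a signalling protein, does to transcripts of the growing leaf, and the Col-0 arrays give the stage difference without the construct. Nothing in the labels says that replicates came from separate sowings, so the spread behind each p-value is that between these arrays and may be technical.

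A young rosette is made mostly of leaves that are still dividing and expanding, which takes large amounts of ribosomes and new cell wall. Older leaves have left division, photosynthesise for export and later take themselves apart, using autophagy, in which cell content is enclosed and delivered to the vacuole, and vacuolar proteases. Leaves also change their wax, phenolic and defence chemistry with age, and many leaf transcripts follow the hour of the day through the circadian clock.

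Signals had been scaled so that the trimmed mean of each array was 100. Array background was 106.9 ± 17.8 (SD, n = 3) at stage 1.05 and 88.35 ± 15.3 at stage 1.14, and the stages overlapped (two-sided exact permutation p = 0.3). For actin, the log2 of 3′ over 5′ control signal, which grows as RNA breaks down, was 2.55 ± 0.348 at stage 1.05 and 1.824 ± 0.233 at stage 1.14. The ubiquitin control gave 2.035 ± 0.48 and 1.181 ± 0.118. Neither control overlapped between the stages (exact permutation p = 0.1 for each, the smallest that 3 against 3 can give), whereas the GAPDH control did (0.8327 ± 0.469 and 0.5523 ± 0.0956, exact permutation p = 0.4). This difference between the stages runs with every result below, and its part in them was not tested. The hour of harvest is not in the labels, so stage and hour cannot be told apart. Of the marker lists for other organs, 3 of 12 root genes had a probe set, and their summed signal was 374.9 to 607.0 at stage 1.05 and 65.1 to 71.3 at stage 1.14. PYK10, an abundant beta-glucosidase of roots and seedlings, made up that change, while the root-hair expansins EXPA7 and EXPA18 read 19.87 ± 9.4 and 24.77 ± 5.06 at stage 1.05 and 23.33 ± 3.42 and 27.6 ± 4.23 at stage 1.14. Whether root tissue had a part in the results was not tested further. The flower and seed markers had no probe set with a name here.

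Replicates correlated at 0.964 to 0.979 within stage 1.05 and at 0.938 to 0.986 within stage 1.14, against 0.766 to 0.827 between the stages (Pearson r over the tested probe sets). Replicate 2 of stage 1.14 stood farthest from its group, at 0.938 and 0.952, and counts that it moves are given with and without it. Among the SPH1 RNAi arrays, replicate 1 of stage 1.14 stood apart, at 0.894 and 0.904 against 0.969 between the other two.

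In all, 13263 probe sets with a mean signal of at least 32 over the 12 arrays were tested with limma on log2(signal + 16). At an adjusted p under 0.05, 3139 were higher at stage 1.14 (23.7%) and 2780 were lower (21.0%), together 5919 (44.6%). At least a 2-fold change was reached by 1247 of the higher (9.40%) and 978 of the lower (7.37%). The arrays of the stages did not overlap at 7777 probe sets (58.6%), and the median change of all tested was 0.02 on the log2 scale. A named gene came from the 7095 probe sets with a single gene, of which 23.0% were higher and 20.4% lower. Counts of list members below are to be read beside these shares. A further 5901 probe sets are unnamed here, and 45.9% of those were called. Because the samples are pools of whole leaves, fewer cells of a type and less RNA per cell cannot be told apart.

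Among named genes the largest log2 change of signal + 16 was that of AT3G62550, a member of the universal stress protein family. Its signal was 48.0, 20.4 and 22.6 on the arrays at stage 1.05 and 1682.9, 1315.8 and 1650.0 at stage 1.14. Every older array lay far above every younger one, a log2 change of 5.12 ± 0.4 (SE; limma adjusted p = 3.21e-06). AT1G11210 went from 3.3, 2.7 and 4.1 to 336.3, 362.4 and 279.4, with a log2 change of 4.14 ± 0.21. Signals this low at stage 1.05 lie below the added 16, so the fold on this scale is smaller than the ratio of the signals. They are also too low to fix the size of the change, and the order of these genes depends on the offset. AT1G56300, which encodes a DnaJ-domain chaperone, read 16.8, 29.2 and 20.2 and then 577.5, 711.9 and 610.9. CHI, annotated as a putative chitinase, rose 14.5-fold, from 46.1, 37.1 and 31.6 to 650.3, 1008.3 and 692.2. Chitinases cut the cell wall of fungi and are part of leaf defence.

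Regulators were among the 12. AT5G61590, also called DEWAX, an ERF-type factor that lowers wax synthesis, stood at 166.4, 49.7 and 41.0 at stage 1.05 and at 1306.5, 873.4 and 1328.4 at stage 1.14. AT2G47890, a B-box zinc finger protein, went from 6.3, 7.1 and 7.2 to 209.1, 285.9 and 230.0. The arrays of the stages were apart for each of the 12, as the naming rule required. The remaining 6 were AT2G15960, CCL, AT1G13470, the acid phosphatase family member AT2G39920, the RING finger protein AT3G47160 and COR15B, with log2 changes between 3.56 and 4.07. Adjusted p over the 12 ran from 2.4e-07 to 0.000181.

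**Figure D1:**
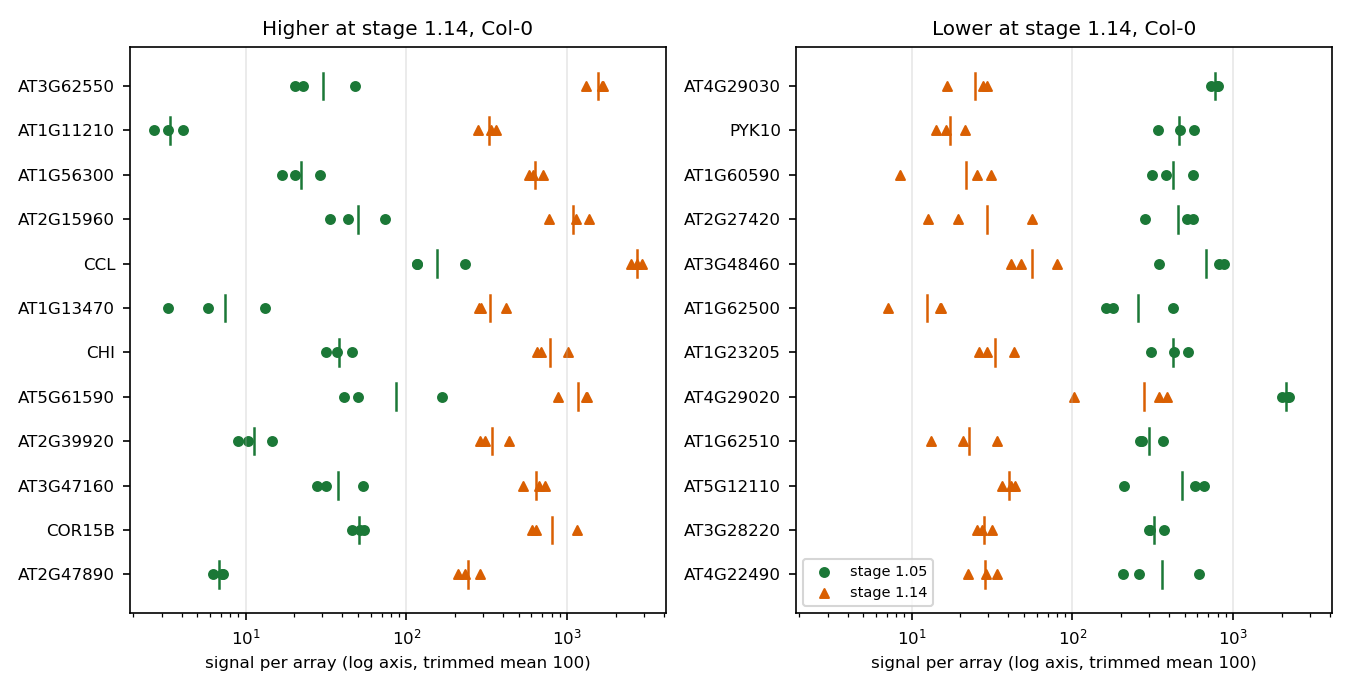
Signal on each Col-0 array (log axis, arrays scaled to a trimmed mean of 100) for the 12 named genes that rose most and the 12 that fell most, with 3 arrays per stage and a bar at each stage mean. In every row the circles of stage 1.05 and the triangles of stage 1.14 are apart, as the naming rule required.

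The steepest fall was that of AT4G29030, from 788.7, 729.2 and 808.5 to 29.5, 16.5 and 27.9, a log2 change of -4.3 ± 0.29 (limma adjusted p = 1.33e-06). Its neighbour in the locus numbering, AT4G29020, fell from 2021.0, 2170.5 and 2232.2 to 387.6, 102.4 and 346.7. Both were uniformly high on the younger arrays, and replicate 2 was the lowest of the older ones for each. PYK10 read 568.4, 339.4 and 468.5 and then 21.4, 16.3 and 14.2, and its log2 change of -3.81 ± 0.53 had an adjusted p of 0.000125.

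Genes acting on pectin, the gel of the primary wall, were among the 12. AT1G60590, a pectin lyase-like protein, fell from 311.6, 565.4 and 384.9 to 8.5, 31.3 and 25.6. AT1G23205, of the pectin methylesterase inhibitor family, fell from 306.2, 428.9 and 525.0 to 26.4, 43.4 and 29.4. For each the lowest younger array was several times the highest older one. The lipid-transfer proteins, small secreted proteins that bind lipids at the leaf surface, gave AT1G62500, AT4G22490 and the related AT1G62510, with log2 changes of -3.14 ± 0.56, -2.94 ± 0.5 and -3.05 ± 0.29. AT3G28220, a TRAF-like protein, had the smallest adjusted p of the 12, 2.22e-07, with signals of 300.4, 302.1 and 369.9 and then 27.5, 25.6 and 31.7. The others were the cysteine protease AT2G27420, the GDSL-type lipase AT3G48460 and AT5G12110, a subunit of the eEF1B exchange factor of translation elongation.

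Genes for the cytosolic ribosome were lower at stage 1.14 almost without exception. Of 40 tested genes for proteins of the small (40S) subunit, 38 fell and 0 rose, with a median log2 change of -1.3, and of 75 for the large (60S) subunit 73 fell and 0 rose, with a median of -1.33, against 20.4% lower among all probe sets with a single gene. Taken over the genes of each list, the median signal of the 40S list was 1173.8, 1247.6 and 1093.8 on the younger arrays and 492.3, 367.1 and 446.9 on the older. For the 60S list it was 1036.2, 1306.7 and 1151.5, then 464.6, 343.6 and 483.6. The stages were clearly separate in both lists, with replicate 2 of stage 1.14 the lowest array. Without that array the counts were 38 of 40 and 72 of 75, and the medians -1.19 and -1.17.

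Within the 40S list the largest fall was at AT4G39200, of the S25 family, from 1012.6, 1856.2 and 984.7 to 351.7, 226.5 and 341.9. AT2G32060, of the S12 family, fell from 928.6, 1079.2 and 1061.5 to 294.8, 236.7 and 299.1, a log2 change of -1.83 ± 0.15 (adjusted p = 3.4e-06). In the 60S list AT3G06680, of the L29 family, went from 644.6, 736.0 and 652.8 to 168.7, 79.6 and 194.7, and AT5G22440, of the L10a family, from 772.4, 789.7 and 817.7 to 185.8, 155.0 and 175.2. AT3G44590, an acidic stalk protein of the P2 family, changed by -2.08 ± 0.15 and AT2G20450, of the L14 family, by -2.02 ± 0.16. These genes come in near-identical copies, and probe sets listed for several genes were left out, though a probe may still read a close copy.

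The 4 genes that did not pass were named after their values were seen. AT3G04230, of the S16 family, read 74.3, 63.5 and 66.0 and then 62.0, 52.1 and 63.4, and AT5G39850, of the S9 family, 102.9, 83.0 and 96.2 and then 146.1, 121.4 and 117.8 (log2 changes of -0.16 ± 0.12 and 0.39 ± 0.19; adjusted p = 0.308 and 0.111). In the large subunit AT1G36240, of the L30 family, gave -0.2 ± 0.14 and AT3G28500, of the P2 family, 0.32 ± 0.19, and their stages overlapped. Of the P2 family, AT3G44590 fell and AT3G28500 thus gave a value above 0 that did not pass.

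Factors that build ribosomes in the nucleolus were lower as well, with 11 of 12 fallen, 0 risen and a median log2 change of -0.92. The share lower among all probe sets with a single gene was 20.4%. AT1G52930, related to the assembly factor BRX1, fell from 234.5, 227.8 and 182.7 to 82.2, 62.4 and 81.8. PESCADILLO (AT5G14520), needed for large-subunit assembly, fell from 354.8, 368.4 and 331.7 to 132.1, 116.9 and 144.4. No array of stage 1.14 reached the lowest of stage 1.05 at either, and the stages were apart at 58.6% of all tested probe sets. Both tested subunits of eEF1B fell: AT5G12110 from 210.9, 661.7 and 575.5 to 36.4, 41.3 and 43.9, and AT5G19510 from 1964.3, 1807.1 and 1797.9 to 986.9, 725.6 and 1112.3. The 1 tested proteasome subunit, RPN12a, read 382.4, 278.8 and 393.0 and then 356.0, 367.3 and 391.6, with no call (adjusted p = 0.681).

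**Figure D2:**
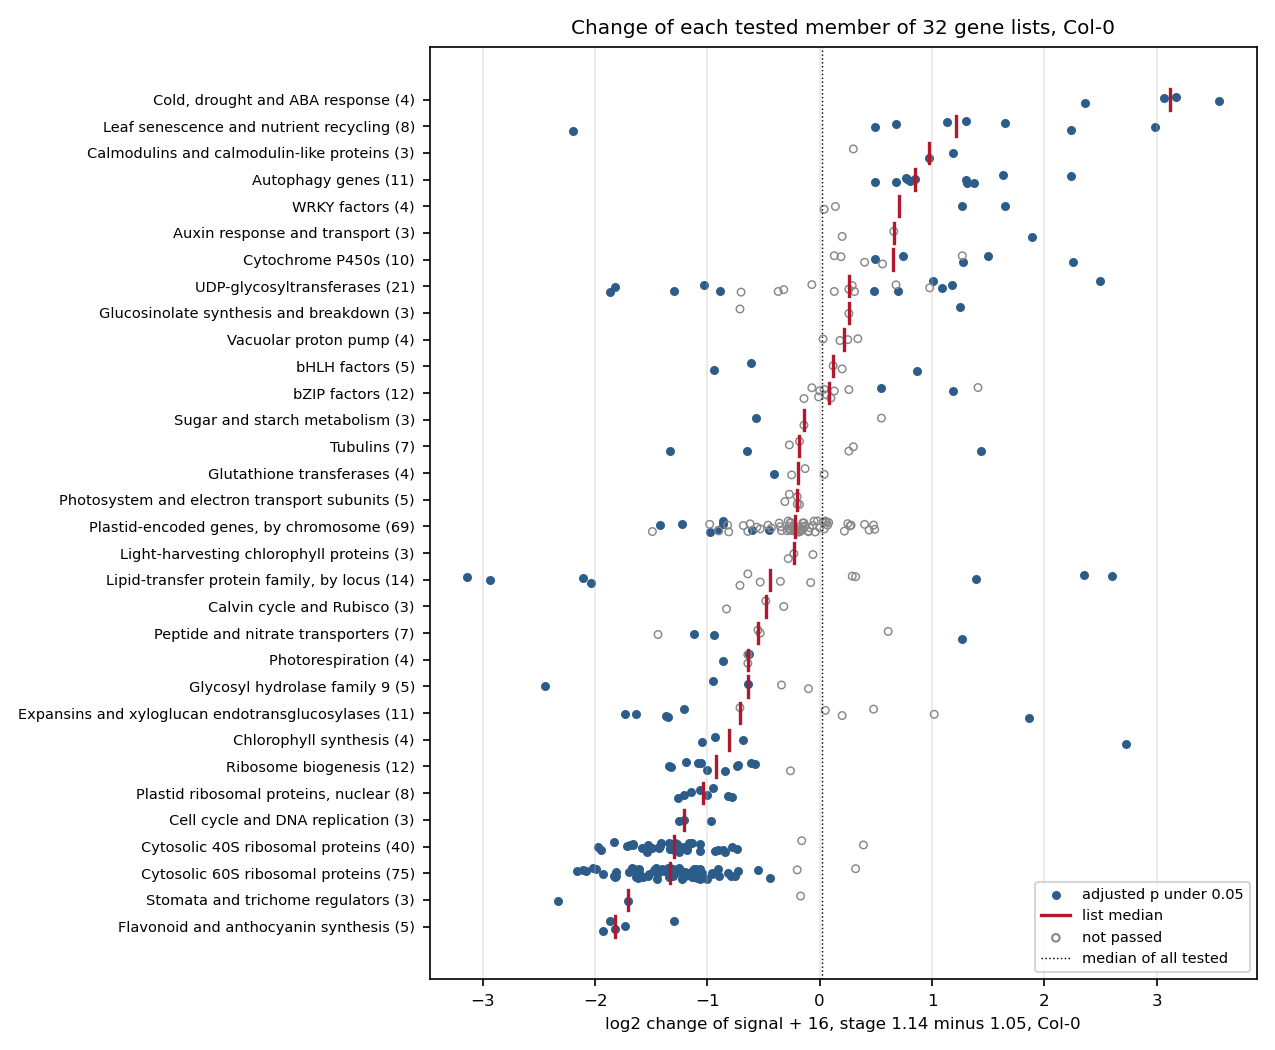
Log2 change of signal + 16 (stage 1.14 minus 1.05, Col-0) of each tested member of the 32 gene lists with at least 3 tested members, with the number tested in brackets, filled points for adjusted p under 0.05 and a bar at each list's median. The ribosomal lists form dense clouds left of 0 with medians of -1.3 and -1.33, the autophagy genes lie between 0.49 and 2.24, and the dotted line marks the median of all tested, 0.02.

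Ribosomes inside plastids make the plastid's own proteins. All 8 tested nuclear genes for their proteins fell, with log2 changes from -1.26 to -0.78 and a median of -1.03, and 7 of 8 fell without replicate 2 of stage 1.14. AT1G64510 fell from 1559.4, 1758.1 and 1818.2 to 744.2, 564.7 and 831.9, and AT1G29070 from 2302.5, 2815.5 and 2746.1 to 1380.9, 963.8 and 1428.3. Of 69 genes on the plastid chromosome, 8 fell and 0 rose, a smaller share than the 20.4% lower among all probe sets with a single gene, and 6 fell without replicate 2 of stage 1.14. Their median of -0.22 became 0.08 under quantile normalization. The 8 included the ribosomal protein genes rpl36, rps18 and rps16 and the RNA polymerase subunit gene rpoA. rpl36 read 827.5, 1069.3 and 481.6 and then 312.0, 277.9 and 231.2, and rpoA 1241.6, 1854.8 and 1044.9 and then 600.0, 526.6 and 560.1. The labelling was primed on poly(A) tails, which plastid messages mostly lack, so these signals depend on how such RNA was primed. NCLPP7 and CLPP4, subunits of the Clp protease that clears plastid and mitochondrial proteins, gave -0.3 ± 0.19 and -0.43 ± 0.14, and only CLPP4 passed (adjusted p = 0.0224). Its call was lost when any of 5 Col-0 arrays was left out.

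The few photosynthesis genes tested showed smaller differences. A probe set with a name was found for 5 of 30 listed photosystem and electron transport genes. It was found for 3 of 20 antenna protein genes and 3 of 18 Calvin cycle genes. None of 5 tested photosystem and electron transport genes, 3 antenna protein genes or 3 Calvin cycle genes passed, with medians of -0.2, -0.23 and -0.48, of which the first and second became 0.11 and 0.09 under quantile normalization. PSAE-1, a photosystem I subunit, read 3694.7, 4701.5 and 3075.3 and then 3069.5, 3871.4 and 3116.6. RCA, which activates Rubisco, read 3616.6, 5230.0 and 4219.6 and then 2797.8, 3714.2 and 3958.2, so the stages overlapped at both. SBPASE, a control point of the Calvin cycle, stood at 3107.1, 3855.2 and 3475.9 and then at 1661.6, 2140.1 and 2053.5 without overlap, but its log2 change of -0.83 ± 0.33 did not pass (adjusted p = 0.0602). The SE rests on the spread of all 12 arrays, and in SPH1 RNAi at stage 1.14 SBPASE read 650.9, 2093.1 and 1793.0. A missing call here thus does not show that the Col-0 arrays varied. Of 4 photorespiration genes, which recover carbon after oxygen enters the Rubisco reaction, 2 fell (beside 20.4% of all single-gene probe sets). They were AT1G11860, a glycine decarboxylase T-protein, with -0.86 ± 0.31 (adjusted p = 0.0375), and AT1G80380, a glycerate kinase, with -0.63 ± 0.24 (adjusted p = 0.0477). These calls were lost when any of 5 and any of 4 Col-0 arrays, respectively, was left out, with adjusted p up to 0.203 and 0.139.

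Of 16 listed chlorophyll synthesis genes, 4 had a probe set with a name and were tested, and 1 rose and 3 fell. The shares among all probe sets with a single gene were 23.0% higher and 20.4% lower. PORB, the light-dependent protochlorophyllide reductase of green leaves, rose from 429.3, 180.0 and 162.7 to 1800.6, 1334.0 and 1844.6, a log2 change of 2.73 ± 0.32 (adjusted p = 4.16e-05). The 3 tested enzymes of earlier steps fell. GSA1, which forms the precursor aminolevulinate, went from 667.6, 660.7 and 832.9 to 343.9, 286.5 and 394.2, and HEMB1 from 774.8, 725.8 and 720.2 to 434.2, 293.1 and 433.8. CHLM, a methyltransferase of the magnesium branch, changed by -0.68 ± 0.17 (adjusted p = 0.00682, and 0.0684 under quantile normalization).

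Of 46 listed genes of cell division and DNA replication, only 4 had a probe set with a name here, and 3 were tested. All 3 fell, against 20.4% lower among all probe sets with a single gene. PRL, a subunit of the MCM helicase that opens DNA for replication, read 164.5, 145.2 and 110.1 and then 56.7, 35.5 and 56.3. The mitotic kinases AUR1 and AUR2 read 139.1, 109.3 and 97.8 and 54.1, 62.3 and 62.2 in young rosettes and 54.2, 45.7 and 51.4 and 18.2, 10.5 and 22.1 in older ones. The stages were apart for each of the 3, as at 58.6% of all tested probe sets. Log2 changes were -1.25, -0.97 and -1.21 in the order named. AUR3 lay below the signal minimum, at 38.7 ± 3.53 and 19.07 ± 5.5, and was not tested. HTB2, a core histone H2B made mainly during DNA replication, changed by -1.04 ± 0.24, while the linker histone HON4 read 172.2, 124.9 and 134.4 and then 173.3, 150.5 and 157.6 (log2 change of 0.15 ± 0.2). Of the histones below the minimum, the drought-induced linker histone HIS1-3 was at 19.5 ± 5.07 and then 45.87 ± 7.41, the centromeric HTR12 at 25.8 ± 6.44 and 20.17 ± 1.67 and the male-gamete MGH3 at 2.07 ± 0.12 and 1.77 ± 0.92.

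Among regulators of leaf form, YAB3, which marks the lower leaf side, fell from 139.6, 99.3 and 132.5 to 75.1, 61.7 and 82.7, and PHV, which specifies the upper side, did not pass (-0.17 ± 0.15). SNZ, an AP2-type repressor of flowering controlled by miR172, fell from 63.2, 64.1 and 69.5 to 28.5, 42.0 and 35.6, and its relative SMZ was at 32.4 ± 0.92 and 15.27 ± 4.46, untested. Also untested were the flowering promoters AGL42, at 6.03 ± 3.82 and then 20.53 ± 2.82, and FD, at 10.97 ± 4.11 and 15.0 ± 1.11. AGL24, a promoter of flowering, read 56.4, 31.4 and 31.7 and then 20.6, 4.7 and 24.5 without passing (adjusted p = 0.0609). STOMAGEN, a peptide from inner leaf tissue that raises stomatal number, dropped from 244.3, 376.0 and 315.6 to 52.6, 36.5 and 58.4, a log2 change of -2.33 ± 0.25. The stomatal lineage factor SPCH was at 24.3 ± 16.11 and 3.47 ± 0.15, below the minimum for testing, as was its successor MUTE at 2.87 ± 0.95 and 1.73 ± 0.85. FMA, which ends that lineage, gave -0.17 ± 0.18. TRY, which restricts leaf hairs, read 65.2, 171.2 and 132.4 and then 3.1, 50.8 and 34.5 (adjusted p = 0.0116), with adjusted p up to 0.0542 when replicate 2 of stage 1.05 or replicate 1 of stage 1.14 was left out.

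Cell wall and cytoskeleton genes moved in both directions. Of 11 tested expansins and xyloglucan endotransglucosylases, which loosen and re-join wall polymers, 5 fell and 1 rose. The shares among all probe sets with a single gene were 20.4% lower and 23.0% higher. XTH32 fell from 572.9, 492.8 and 635.7 to 142.8, 164.0 and 170.9, and the beta-expansin EXPB3 from 376.8, 206.2 and 235.5 to 89.5, 52.6 and 83.7. XTH16 changed by -1.37 ± 0.37. The riser was EXLA1, an expansin-like gene, from 36.7, 12.9 and 14.9 to 195.0, 49.7 and 148.0, and without replicate 2 of stage 1.14 the count of risers was 3. Of 5 tested genes of glycosyl hydrolase family 9, endoglucanases of wall assembly, 3 fell and 0 rose. GH9B13 went from 333.9, 132.2 and 168.6 to 24.8, 12.4 and 35.1 and GH9C2 from 367.1, 319.5 and 452.6 to 179.2, 169.2 and 213.5. Among 7 tubulins, TUB7 and TUA6 fell (-1.33 ± 0.36 and -0.65 ± 0.18; for TUA6 the adjusted p of 0.00937 became 0.0525 under quantile normalization), and TUB5 rose from 182.3, 128.4 and 141.6 to 506.3, 356.6 and 443.6. GUT2, a xylan synthesis gene of secondary walls, did not pass (-0.25 ± 0.12).

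Of 14 tested lipid-transfer proteins 4 fell and 3 rose, near the 20.4% lower and 23.0% higher among all probe sets with a single gene, and 5 fell without replicate 2 of stage 1.14. Besides the falls above, AT4G12490 rose from 87.7, 116.7 and 72.2 to 762.1, 557.6 and 590.0 and AT5G55450 from 175.4, 39.1 and 61.0 to 417.4, 472.9 and 492.8. For AT4G12490 the lowest older array was several times the highest younger one. Log2 changes in the family ran from -3.14 to 2.6.

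Genes of flavonoid and anthocyanin synthesis, which makes sunscreen pigments, were lower at stage 1.14 in 5 of 5 tested genes, with a median log2 change of -1.82. The share lower among all probe sets with a single gene was 20.4%. The replicates of stage 1.14 disagreed. DFR, the reductase that opens the anthocyanin branch, read 324.5, 268.1 and 308.4 at stage 1.05 and 50.4, 192.9 and 46.6 at stage 1.14. UGT78D2, a flavonoid glucosyltransferase, read 313.4, 458.3 and 392.0 and then 67.5, 199.1 and 56.7. AT4G14090, an anthocyanin glucosyltransferase, read 198.1, 184.9 and 205.4 and then 13.8, 247.0 and 6.0. At all 3 genes replicate 2 of stage 1.14 was the high one, and at AT4G14090 it lay above the younger arrays. UF3GT, which adds xylose to anthocyanins, had the same order, with 156.1, 202.9 and 236.8 and then 33.8, 231.0 and 35.9. CHIL, a chalcone isomerase-like protein outside the list and named after its values were seen, read 236.9, 308.7 and 313.2 and then 6.1, 114.6 and 6.7. Without replicate 2 the median of the list was -2.29, and AT4G14090 changed from -1.93 ± 0.66 (adjusted p = 0.0312) to -3.05 (adjusted p = 4.49e-06). With it, the calls of AT4G14090 and UF3GT were lost when any of the other 5 Col-0 arrays was left out. Both calls were also lost in a fit of only the 6 Col-0 arrays. Over the alternatives in which they were lost, adjusted p reached 0.14 and 0.171.

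**Figure D3:**
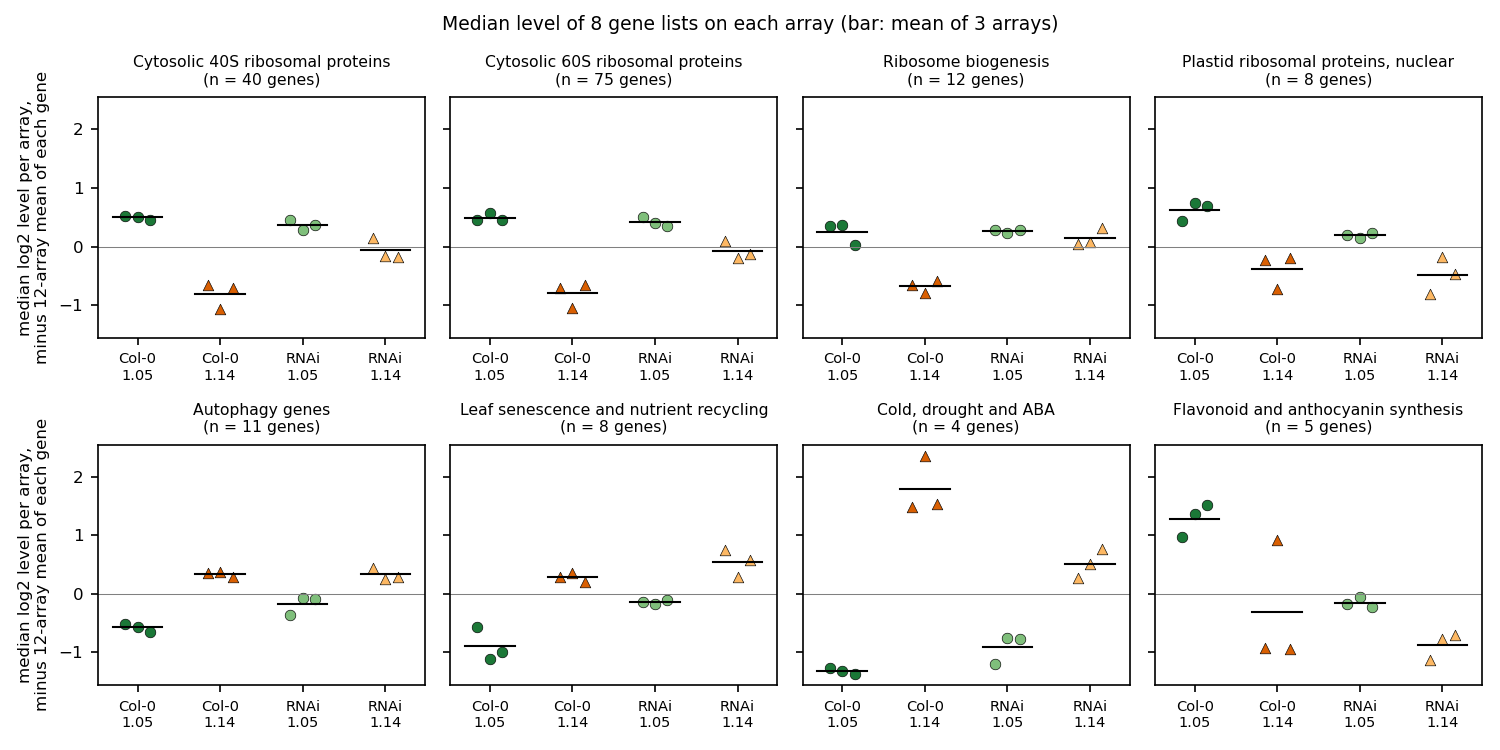
Median over the genes of 8 lists of the log2(signal + 16) level on each of the 12 arrays, after each gene's mean over the 12 arrays was subtracted; a bar marks the mean of 3 arrays. In Col-0 the arrays of the 40S list lie between 0.46 and 0.53 at stage 1.05 and between -1.06 and -0.65 at stage 1.14, the autophagy list goes from between -0.65 and -0.51 to between 0.28 and 0.38, and the flavonoid list has 1 array of stage 1.14 at 0.92 beside others at -0.93 and -0.94.

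Other UDP-glycosyltransferases, enzymes that attach sugars to small molecules, gave 6 risen and 5 fallen of 21, near the shares of 23.0% and 20.4% among all probe sets with a single gene, the fallen including UGT78D1, UGT78D2 and UF3GT of the flavonoid list. Without replicate 2 of stage 1.14 the counts were 7 and 8. UGT72E1, which acts on lignin precursors, rose from 58.9, 29.9 and 36.1 to 344.7, 265.1 and 301.4. Of 10 tested cytochrome P450 genes, 9 of them of the CYP71B family, 5 rose and 0 fell, against the same 23.0% higher. Without replicate 2 the count of risers was 4. CYP71B23 went from 37.4, 32.1 and 15.1 to 206.3, 184.9 and 179.4 and CYP71B24 from 32.6, 49.2 and 38.3 to 128.9, 147.5 and 87.2. BCAT4, which starts the chain elongation of methionine for glucosinolates, rose from 769.0, 466.4 and 489.2 to 1177.9, 1590.3 and 1324.0. The glucosinolate transporter GTR2, counted with the peptide and nitrate transporters, rose from 117.3, 91.9 and 127.9 to 268.3, 347.0 and 267.1, while AT2G26690 and AT1G59740 of that family fell by 1.12 and 0.94 on the log2 scale, with 3 falls in place of 2 without replicate 2. Among 4 glutathione transferases 1 passed, GSTU27, with -0.41 ± 0.14, and that call was lost when any of 5 Col-0 arrays was left out.

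The cold, drought and abscisic acid list gave some of the largest rises, with 4 of 4 tested genes risen and a median log2 change of 3.12. The share higher among all probe sets with a single gene was 23.0%. COR15B, a stromal protein that protects membranes in the cold, read 46.1, 51.1 and 54.3 and then 608.0, 1152.1 and 640.2. Its neighbour COR15A read 52.0, 37.7 and 29.9 and then 227.5, 1174.7 and 327.7. The dehydrin COR47 read 130.1, 125.7 and 137.0 and then 1205.4, 1614.6 and 1140.5, a log2 change of 3.17 ± 0.18 (adjusted p = 5.08e-07). LTI30, another dehydrin, went from 17.6, 24.8 and 26.1 to 178.5, 222.0 and 151.2. Replicate 2 of stage 1.14 was the highest array at all 4 genes, and without it the median was 2.7 and the 4 calls held.

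GI, a core clock gene that peaks late in the day, rose from 100.0, 117.2 and 77.3 to 370.0, 589.6 and 413.2, and CCL, which is clock-controlled, from 231.9, 117.0 and 116.2 to 2489.4, 2737.5 and 2906.6. Both passed (adjusted p = 8.36e-05 and 0.000181), and for these genes too stage and hour of harvest cannot be told apart. Hormone genes gave a few calls. The gibberellin receptors GID1A and GID1B rose from 58.3, 57.5 and 58.5 to 169.0, 182.1 and 141.7 and from 26.6, 14.8 and 21.7 to 67.0, 66.9 and 52.5. IAA29, an auxin-response repressor, rose by 1.89 ± 0.43, whereas GH3.3 and WES1, which conjugate auxin, did not pass. Of the cytokinin-induced response regulators, RR16 rose and ARR15 fell, with log2 changes of 0.92 ± 0.21 and -0.94 ± 0.24.

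Genes of senescence and recycling were mostly higher, with 7 of 8 tested risen, 1 fallen and a median log2 change of 1.22. GAMMA-VPE, a vacuolar processing protease, rose from 226.4, 236.4 and 284.4 to 1683.7, 2844.6 and 1888.8, a log2 change of 2.99 ± 0.22 (adjusted p = 2.67e-06). WRKY53, a transcription factor that promotes leaf senescence, rose from 21.0, 19.2 and 14 to 73.3, 130.1 and 76.5. SAG29, a sugar transporter named for its rise in senescent leaves, went the other way, from 104.9, 107.1 and 147.2 to 19.6, 11.8 and 9.4 (-2.2 ± 0.44; adjusted p = 0.00159). The autophagy list shares 4 ATG8 genes with it, and all of its 11 tested genes rose, with a median of 0.85 against 23.0% higher among probe sets with a single gene. Its members were mainly ATG8-type proteins, the ubiquitin-like tags that coat the autophagic membrane, and ATG3, which helps attach them. ATG8F read 407.4, 365.6 and 407.0 and then 1064.9, 975.7 and 1084.9, and APG8H 228.7 to 254.7 and then 680.7 to 901.0. ATG8E varied more, with 69.4, 20.5 and 26 and then 397.5, 114.8 and 238.9. No older array overlapped a younger one at any of the 3, as at 58.6% of all tested probe sets. The 4 tested subunits of the vacuolar proton pump, which acidifies the vacuole, gave 0 calls and a median of 0.21, with VHA-A3 nearest to a call (0.34 ± 0.13; adjusted p = 0.0523).

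Defence and stress regulators were covered thinly. Of all probe sets with a single gene 23.0% were higher and 20.4% lower, and counts in such short lists were not tested against those shares. GRX480, a salicylate-induced glutaredoxin, rose from 40.1, 21.2 and 27.9 to 58.0, 79.0 and 70.8. The defensin PDF1.2, a jasmonate and ethylene marker, read 38, 310.3 and 499.1 and then 1214.1, 176.5 and 925.3, and PDF1.2b 84.7, 929.7 and 1195.7 and then 1476.3, 287.3 and 2001.8. Replicates of 1 stage thus differed more than the stages, and neither passed (adjusted p = 0.153 and 0.407), though 1 of the pair did without replicate 2 of stage 1.14. Of 4 WRKY factors WRKY53 and WRKY47 rose, and WRKY47 was tight, with 36.9, 33.4 and 38.5 and then 115.1, 106.9 and 108.0. Of 12 bZIP factors, 2 rose, near the 23.0% share, and 0 fell, or 3 rose without replicate 2 of stage 1.14. The 2 were BZIP53, which acts in amino acid recycling under low energy (1.19 ± 0.25), and BZIP60, a regulator of the unfolded protein response (0.55 ± 0.14). The calmodulin-like CML41 and CML42 rose by 1.19 ± 0.26 and 0.97 ± 0.21 on the log2 scale. Among 5 bHLH factors bHLH121 rose and bHLH34 and bHLH115 fell, all of them linked to iron supply, and the iron regulator ILR3 did not pass (0.12 ± 0.17). In the sugar list 1 of 3 fell, the vacuolar invertase AT1G62660 (-0.57 ± 0.16; adjusted p = 0.0109, and 0.0556 without replicate 2 of stage 1.05), while the sucrose exporter SWEET11 gave -0.14 ± 0.39.

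The stage change was set beside that of the SPH1 RNAi plants, whose arrays are separate from those of Col-0. In them 767 probe sets were higher (5.78%) and 591 lower (4.46%), together 1358 (10.2%). The median standard error was 0.18 for each genotype, which the model fixes, since all groups share 1 estimate of the spread. It does not show that the genotypes were measured with equal precision. Of the 5919 Col-0 calls 92.8% had the same direction in SPH1 RNAi, and 1239 were called in both, which is 20.9% of the Col-0 calls and 91.2% of the SPH1 RNAi calls. Across probe sets the changes correlated at r = 0.79, a description over genes that share arrays. The median size of the change over the Col-0 calls was 0.84 on the log2 scale in Col-0. It was 0.38 in the SPH1 RNAi plants, and since the probe sets were chosen by their Col-0 calls the former is a description only.

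The difference between the stage changes passed at 446 probe sets (3.36%), of which 442 were also Col-0 calls and 439 had the smaller change in SPH1 RNAi. Without replicate 1 of SPH1 RNAi at stage 1.14 the count was 631, of which 614 were smaller in SPH1 RNAi and 400 were among the 446. It was 119 without replicate 2 of Col-0 at stage 1.05, 159 without replicate 3 of that stage, 211 without replicate 1 and 171 without replicate 3 of Col-0 at stage 1.14. The genes with the smallest p included AT4G29030, which read 808.7, 572.7 and 722.4 and then 587.2, 206.8 and 406.5 in SPH1 RNAi, so that its fall was -0.89 there (adjusted p of the difference = 0.00314). AT1G13470 was at 220.3, 230.4 and 163.4 already at stage 1.05 in SPH1 RNAi, against 13.2, 3.3 and 5.8 in Col-0, and 302.9, 252.6 and 324.3 at stage 1.14. CHI likewise read 383.7, 1234.4 and 1047.1 at stage 1.05 there, and its stage change was 0.38 against 3.86 in Col-0. AT1G11210 and AT3G28220, by contrast, changed by 3.7 and -2.63 in SPH1 RNAi, and their differences from Col-0 did not pass (adjusted p = 0.469 and 0.452). Without replicate 1 of SPH1 RNAi at stage 1.14 that of AT1G11210 passed (adjusted p = 0.0451).

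By list, the ribosomal genes had medians of -0.44 (40S) and -0.48 (60S) in SPH1 RNAi, and the difference passed at 11 of 40 and 27 of 75 genes. The share over all tested probe sets was 3.36%, and list counts were not tested against it. Counts by list with a Col-0 array left out are not given, though the total then lay between 119 and 348. Without replicate 1 of SPH1 RNAi at stage 1.14 these were -0.55 and -0.57, with 12 and 23 genes. Ribosome assembly factors had a median of -0.19 there with 3 of 12 differences passed, and the autophagy genes one of 0.57 with 1 of 11, or 0.39 with 2 of 11 without that array. For the plastid ribosomal genes the difference passed at 0 of 8, with a median of -0.77 in SPH1 RNAi, or -0.59 without that array. In a list of 8 genes a count of 0 is near the share over all tested probe sets. For the cold and drought list it passed at 2 of 4, COR47 and LTI30, and COR47 read 143.8, 170.3 and 171.6 and then 619.5, 405.7 and 452.9 in SPH1 RNAi.

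**Figure D4:**
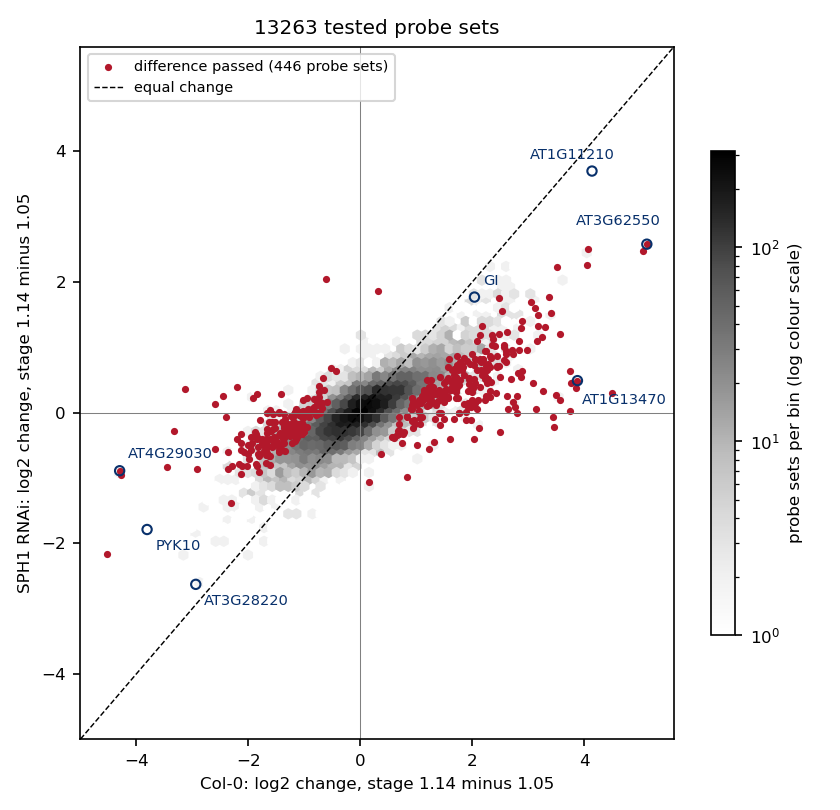
Log2 change from stage 1.05 to 1.14 in Col-0 (x axis) and in SPH1 RNAi (y axis) for the 13263 tested probe sets, in grey by number per bin, with the 446 whose difference passed in red, 7 named genes circled and a dashed line of equal change. Most red points lie between the x axis and the dashed line or near the x axis, and AT1G11210, GI and AT3G28220 lie nearer to the dashed line than AT1G13470 and AT4G29030.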

How the data were processed

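Total RNA of rosette leaves was hybridised to ATH1 arrays in 12 samples, 3 per group. The deposited values are intensities on a linear scale, which the authors had scaled per array: the trimmed mean, 2% off each end, is 100 in the files. No source used here names the software that summarised probes. Depth has no meaning for arrays, whose number limits the precision. The 64 control probe sets of 22810 were left out. Values were tested as log2(signal + 16) with limma 3.58.1 in R 4.3.3 (lmFit, eBayes with an intensity trend), in 1 model of 4 groups without covariates, with Benjamini-Hochberg adjustment over 13263 probe sets and a threshold of 0.05. The model was tested on simulated data. Single values per array were compared by exact permutation (scipy 1.17.1).

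Genes were named from the platform annotation, updated through RefSeq's TAIR10.1 table, and loci without a symbol are given by locus. The probe set of highest mean signal stood for a gene. Named genes were the 12 largest changes per direction among calls whose stages did not overlap, up to 4 members per list, and the 6 smallest p of the difference between genotypes. Others are said to be named after their values were seen, and members of the division, histone, flowering, stomata and root lists below the signal minimum are given by level. Members and lists were chosen with earlier results of these data known. Of 66 lists, 34 were added after the files had been seen, 46 had a tested member and 20 had none. Promoter motifs were not analysed here. Alternatives varied the offset, signal minimum, scaling, prior, weights, replicate block and arrays.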

Additional observations from a re-analysis of the deposited data

Results flagged for a closer look

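Of 166 named genes, 28 differed between SPH1 RNAi and Col-0 in their stage change in limma's test of that difference, with adjusted p between 0.000435 and 0.0425. Values below are the SPH1 RNAi change minus the Col-0 change on the log2 scale, and in 27 of the 28 the change was smaller in size in SPH1 RNAi. Of the 166, 6 were named for the smallest p of this difference and many for a large Col-0 change. Both counts are thus partly set by the naming and are descriptions only. Over all tested probe sets the difference passed at 446 (3.36%).

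Among genes that rose in Col-0 the difference was -3.68 for AT1G76960, -3.48 for CHI, -3.39 for AT1G13470, -2.54 for AT3G62550 and -2.18 for RING1, an E3 ubiquitin ligase. It was -1.82 for the P-type ATPase AT3G25610, -1.8 for CYP71B23, -1.67 for COR47, -1.17 for LTI30, -0.98 for APG8H and -0.77 for WRKY47. At stage 1.05 AT3G25610 and AT1G13470 read below the added 16 in Col-0, so these sizes depend on it: with offsets of 8 and 64 they were -2.41 and -0.81 for AT3G25610 and -3.97 and -2.03 for AT1G13470, and both passed.

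Among genes that fell in Col-0 it was 3.49 for AT1G62500, 3.41 for AT4G29030, 2.69 for GH9B13, 2.59 for SAG29, 1.68 for the pectin lyase-like AT1G10640, 1.18 for GH9C2 and 0.97 for AT1G59740. Of ribosomal genes it was 1.48 for AT3G44590, 1.38 for AT3G10610, 1.38 for AT3G06680, 1.3 for AT2G32060, 1.29 for AT5G22440, 1.21 for AT2G20450 and 1.14 for AT3G52580. Of ribosome assembly factors it was 1.13 for AT5G14520 and 1.07 for AT1G52930.

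AT3G28500 was the exception, with a difference of 1.53. It read 35.6, 44.8 and 46.3 and then 242.4, 145.3 and 207.8 in SPH1 RNAi, a rise of 1.86, against 0.32 in Col-0. Without replicate 1 of SPH1 RNAi at stage 1.14 the differences of SAG29 and AT3G06680 no longer passed (adjusted p = 0.0501 for each), and the other 26 did. With an offset of 8 that of SAG29 did not pass (adjusted p = 0.0526), nor with an offset of 64 those of AT1G62500 and WRKY47 (adjusted p = 0.0923 and 0.061). Which of the flagged differences passed with a Col-0 array left out is not given. Over all tested probe sets the count then lay between 119 and 348, against 446 with all arrays. It was 631 without replicate 1 of SPH1 RNAi at stage 1.14, so the 26 passed where the count rose. They do not show that the differences hold without a Col-0 array.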

How the results depend on the processing

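The count of Col-0 stage calls stayed within 1.5 times its value under every alternative run, from 4667 at a minimum signal of 64 to 7916 with array weights, and from 4665 to 5328 when 1 Col-0 array was left out (6439 without replicate 1 of SPH1 RNAi at stage 1.14). The 446 differences between genotypes became 2137 with array weights, 236 with no signal minimum and 856 without the 2 repeated hybridisations, and ranged from 119 (without Col-0 stage 1.05 replicate 2) to 631 (without SPH1 RNAi stage 1.14 replicate 1) when 1 array was left out. The 2 repeated hybridisations were replicates 2 and 3 of SPH1 RNAi at stage 1.14. Without them that group held only replicate 1, the array that stood apart, at 0.894 and 0.904. The count of 856 thus rests on 1 array in that group, and no conclusion is drawn from it. The cause of these shifts in the counts was not tested. Of 118 named genes that passed in Col-0, 97 passed under all 20 alternatives and 11 under the 19 in which they were tested, since their mean signal was below 64. None of the 118 changed sign where tested. The calls lost under at least 1 alternative were those of AT1G11860, AT1G62660, AT1G80380, AT4G14090, CHLM, CLPP4, GSTU27, TRY, TUA6 and UF3GT.

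Signs turned in 13 genes that had not passed. Quantile normalization gave PSAE-1 0.11, ATPC1 0.14, PSBW 0.14, LHCB4.2 0.09, LHCB4.3 0.28, ZAP1 -0.07, GSTU20 0.15, GSTU18 -0.04 and VHA-A2 -0.06. Equal medians gave ZAP1 -0.03, GSTU18 -0.04 and VHA-A2 -0.04, and array weights ZAP1 -0.04 and GSTU20 0.01. When 1 array was left out, LHCB4.3 ranged from -0.33 to 0.08, VHA-A2 from -0.03 to 0.13, ZAP1 from -0.12 to 0.14, PDF1.2b from -0.14 to 1.83, GSTU20 from -0.25 to 0.04, RPN12a from -0.06 to 0.18, SWEET11 from -0.36 to 0.07 and WES1 from -0.05 to 0.58. Over all tested probe sets the median of 0.02 became -0.03 under quantile normalization and -0.05 with equal medians.

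Replicate numbers gave no steady pairing of the samples (same-number correlations of -0.04 to 0.23 between the Col-0 stages and of -0.25 to 0.49 over all pairs of groups). Between Col-0 and SPH1 RNAi at stage 1.14 they were 0.49, 0.36 and -0.25 for replicates 1, 2 and 3. Whether some replicates shared a batch was not tested. With the replicate block there were 5941 Col-0 calls and 523 differences between genotypes. With 3 pooled arrays a group, array signal and their number limit what small differences can be shown.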
